A study of Mus musculus with 12 samples.

Results

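Intestinal stem cells (ISCs) sorted from 2-month-old mice by a Lgr5-GFP reporter were compared with ISCs sorted from 2-month-old wild-type mice by surface markers. The comparison used 3 Lgr5-GFP and 3 SM6 libraries, 6 of the 12 libraries in the series, and covered every gene with more than 5 reads and at least 1 CPM, a count scaled to the depth of its library, in any library. That filter kept 13368 of the 54232 genes in the table. The SM6 mice were wild-type C57/Bl6 animals, and their cells were gated with 6 surface markers as CD24med, CD166+, CD44high, GRP78low, EPHB2high and EPCAM+ after removal of CD31+ and CD45+ cells. The Lgr5-GFP mice carried Lgr5-EGFP-IRES-CreERT by the labels, written Lgr5-EGFP-IRES-CreERT2 in the study's methods. This knock-in places a green fluorescent protein and a Cre recombinase under the control of the Lgr5 gene. The sample protocol gives the surface-marker gate for every library, whereas the study describes the reporter cells as isolated by their GFP. All mice were female and gave 1 library each, so the p-values below measure the spread between mice. Strain, reporter allele and sorting method changed together between the groups, so their contributions cannot be told apart. The other 6 libraries were made in the same way from mice aged 22 months. They entered the 2-month comparison through the shared estimate of the spread, the scaling of the libraries and the filter, which 287 of the 13368 genes passed only in 22-month libraries.

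As background, Lgr5-expressing cells at the base of the crypt divide to renew the epithelium of the small intestine. Their daughters become enterocytes, which absorb nutrients, or secretory cells: Paneth cells, which release antimicrobial peptides, goblet cells, which release mucus, enteroendocrine cells, which release hormones, and tuft cells, which sense the gut content. Paneth cells sit between the stem cells at the crypt base, and both sorts aim to take the stem cells and leave the other types out.

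The 6 libraries held between 1099102 and 3815425 counts, and 1 count corresponded to between 0.315 and 0.945 CPM. CPM are given here on library totals after TMM scaling, which sets libraries level on their shared genes. One library stood apart. In Lgr5-GFP replicate 1, the deepest, alpha-defensin transcripts took 23.2% of all counts, against 12.3% and 5.57% in Lgr5-GFP replicates 2 and 3 and 8.24%, 3.46% and 1.26% in the SM6 libraries. Counting error was at most 0.065 percentage points on each of these shares (95% Wilson interval, distance from the share to its bound). Some list genes passed the count filter at 2 months only through 1 group, where they were high. Counts of positive fold changes and medians are therefore given over the list members that passed it in at least 1 SM6 and at least 1 Lgr5-GFP library at 2 months, a choice made after the data were seen. Of the 11453 such genes 47.3% had positive fold changes with a median of -0.022, against 49.0% of all genes tested.

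In edgeR's quasi-likelihood test with Benjamini-Hochberg adjustment, 12 genes passed an adjusted p of 0.05 at 2 months and are termed called (0.0898% of the genes tested). Of these, 7 were higher (0.0524%) and 5 lower (0.0374%) in the Lgr5-GFP libraries. The genes higher in Lgr5-GFP were A930009A15Rik, a gene inside the Lgr5 locus, Hsph1 and Dnaja1 of the heat shock response, Reg3g and Reg3b, which encode antimicrobial lectins, the immediate early gene Fos, and Baiap2l1. Those lower in Lgr5-GFP were the hormone gene Gip, the granule gene Chga, Gm47283, the ribosomal RNA gene CT010467.1 and the histone gene Hist1h4d. For each of these 12 genes the 3 Lgr5-GFP libraries lay wholly above or wholly below the 3 SM6 libraries, a separation seen for 13.7% of all genes tested (6.38% with Lgr5-GFP higher and 7.35% with it lower). An unadjusted p under 0.05 was reached by 999 genes (7.47%), 490 with positive (3.67%) and 509 with negative (3.81%) fold changes. On library totals without TMM, 25 genes were called, 8 higher and 17 lower, and the median log2 fold change of all genes moved from -0.0081 to -0.148. Without Lgr5-GFP replicate 1, 17 genes were called, 10 of them among the 12. A fit of the 5 remaining 2-month libraries alone called 31 genes, 11 of them among the 12. The count also changed with the 22-month libraries. Leaving out SM6 replicate 3 at 22 months, which held 23.1% alpha-defensin counts, gave 39 calls that included all 12. Such a fit changes the shared spread, the filter and the scaling together, and their parts were not tested. Leaving out 1 library lowered the count to 6 without SM6 replicate 2, to 6 without Lgr5-GFP replicate 2 and to 7 without SM6 replicate 3. The calls on A930009A15Rik, Hsph1 and Chga held under all 26 alternatives tried, and those on Gip and Gm47283 under 25 of 26.

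**Figure D1:**
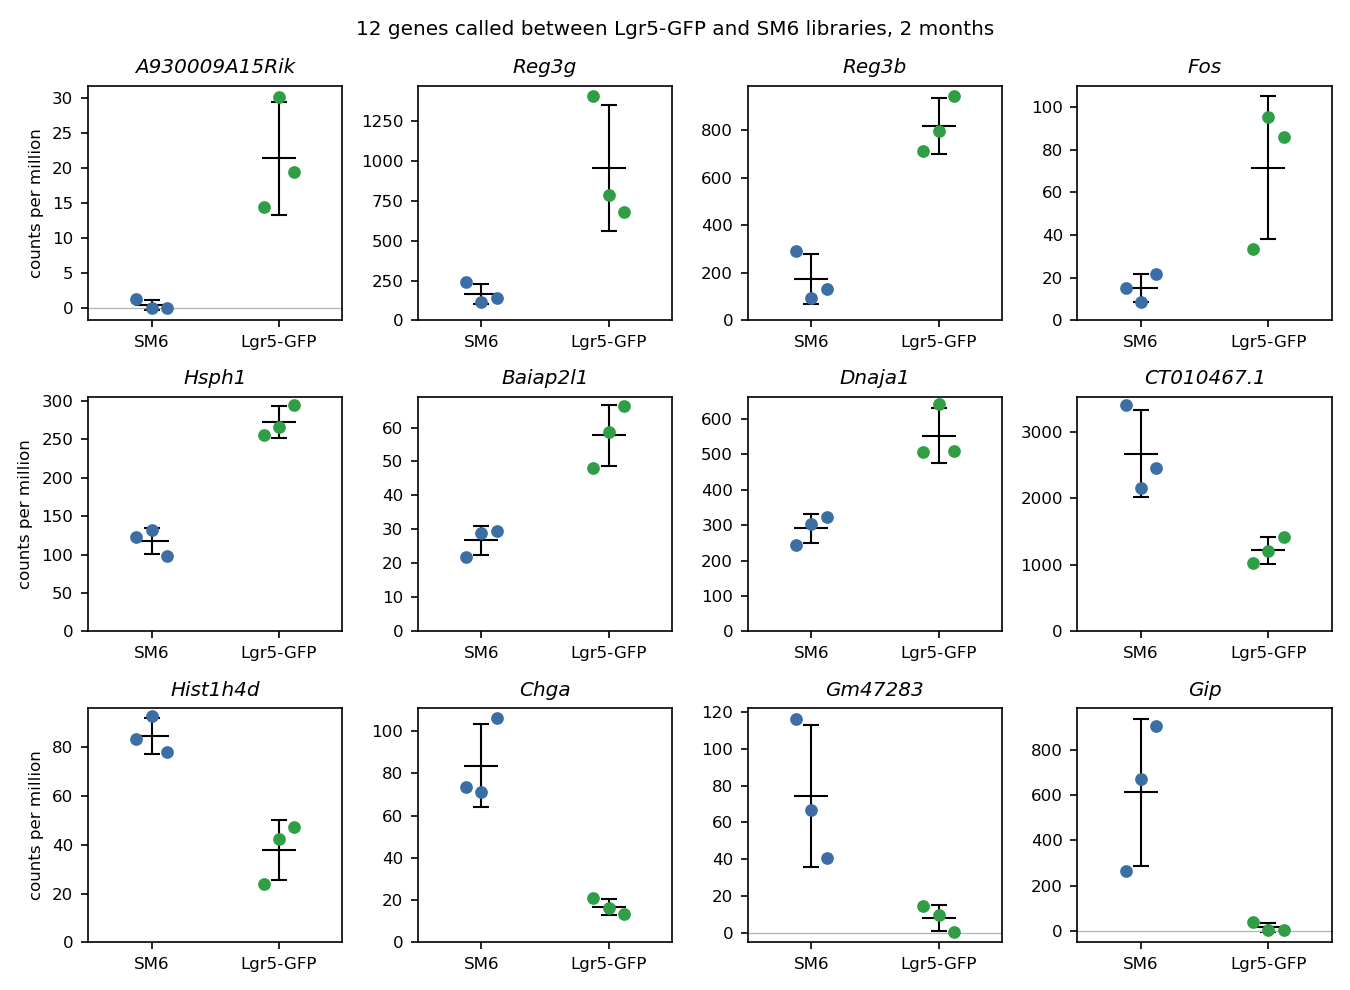
CPM of the 12 called genes in each 2-month library, with 1 panel per gene, SM6 libraries in blue, Lgr5-GFP libraries in green, and bars for the mean and SD of 3 libraries. In every panel the groups lie apart. The panels are ordered from the most positive to the most negative fold change.

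The defining stem cell markers were present in all 6 libraries, and none passed the test between groups. Lgr5, the receptor for R-spondins that marks these cells, was at 356, 329 and 312 CPM in the SM6 libraries and at 305, 251 and 217 CPM in the Lgr5-GFP libraries. All Lgr5-GFP values lay below all SM6 values, but the log2 fold change of -0.36 ± 0.16 (SE, n = 3 per group) did not pass the test (adjusted p = 0.65). Ascl2, a transcription factor of the stem cell state, was at 89.2 to 124 CPM in SM6 and at 92.7 to 130 CPM in Lgr5-GFP. Olfm4, which encodes a secreted glycoprotein abundant in ISCs, was at 9320 to 11900 CPM in SM6 and at 9378 to 10970 CPM in Lgr5-GFP. Smoc2, a matricellular protein gene, was at 268 to 329 CPM in SM6 and at 317 to 334 CPM in Lgr5-GFP. Of 20 stem cell list genes, all tested, 0 were called by edgeR's quasi-likelihood test, 2 had an unadjusted p under 0.05, and the median log2 fold change was -0.093, against -0.0081 over all genes tested. The smallest p in the list belonged to Znrf3, a ubiquitin ligase that removes Wnt receptors, with a log2 fold change of -0.55 ± 0.21 (adjusted p = 0.558).

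The genes of the surface-marker gate did not pass the test either. Hspa5 encodes GRP78, for which the gate takes low cells. Its level was 354, 282 and 357 CPM in SM6 and 547, 572 and 690 CPM in Lgr5-GFP, with no overlap and a log2 fold change of 0.87 ± 0.20 (adjusted p = 0.12). This was the gate gene nearest the threshold, and it was called under 8 of 26 alternatives, among them the fit of the 2-month libraries alone, DESeq2 and limma voom. Cd44, a hyaluronan receptor for which the gate takes high cells, was at 152 to 161 CPM in SM6 and at 110 to 123 CPM in Lgr5-GFP (log2 fold change -0.42 ± 0.18, adjusted p = 0.619). Cd24a, for which the gate takes intermediate cells, was at 239 to 291 CPM in SM6 and at 269 to 406 CPM in Lgr5-GFP (log2 fold change 0.40 ± 0.18, adjusted p = 0.643). Alcam, which encodes CD166, Ephb2 and Epcam had log2 fold changes of -0.46 ± 0.28, 0.34 ± 0.23 and -0.14 ± 0.15, and their libraries overlapped between groups. The 2 genes of the excluded populations, Pecam1 for CD31 and Ptprc for CD45, stayed at or below 4.43 and 1.89 CPM in the 6 libraries. Of 8 gate genes, 0 were called by edgeR's quasi-likelihood test, and 3 had an unadjusted p under 0.05. Ptprc passed the filter only through Lgr5-GFP replicate 1, and over the other 7 the median log2 fold change was -0.14 and ran from -0.21 without SM6 replicate 1 to 0.21 without SM6 replicate 2.

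The gene called with the highest fitted fold change lay inside the modified locus. A930009A15Rik (ENSMUSG00000092210) is annotated on the plus strand of chromosome 10, from 115569986 to 115582448 in GRCm38, and is labelled protein coding with 5 exons. It lies wholly within intron 1 of Lgr5, which runs on the minus strand from 115450311 to 115587780, and ends 4833 bases short of Lgr5 exon 1. The SM6 libraries held 2, 0 and 0 counts of A930009A15Rik and the Lgr5-GFP libraries 46, 32 and 47 counts, which corresponds to 14.5, 30.2 and 19.4 CPM. The ratio of the summed, scaled counts was 45.5, with a counting interval from 12.3 to 379.5, and the adjusted p was 0.000134. At 2 months this gene passed the filter only through the Lgr5-GFP libraries, where it was high, unlike the other 11 called genes, which passed it in both groups. At 22 months the SM6 libraries were at 1.56, 0 and 0.799 CPM and the Lgr5-GFP libraries at 88.6, 52 and 67.5 CPM, and the gene was called there too (adjusted p = 4.65e-07). Because the strand setting of the counting is not given in the sources used here, reads from this gene and from the Lgr5 transcript on the other strand cannot be told apart. Within 10 Mb of Lgr5, 70 genes were tested, of which A930009A15Rik was the only one called, 7 had an unadjusted p under 0.05 (10.0%, against 7.47% of all genes), and the median log2 fold change was -0.023.

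**Figure D2:**
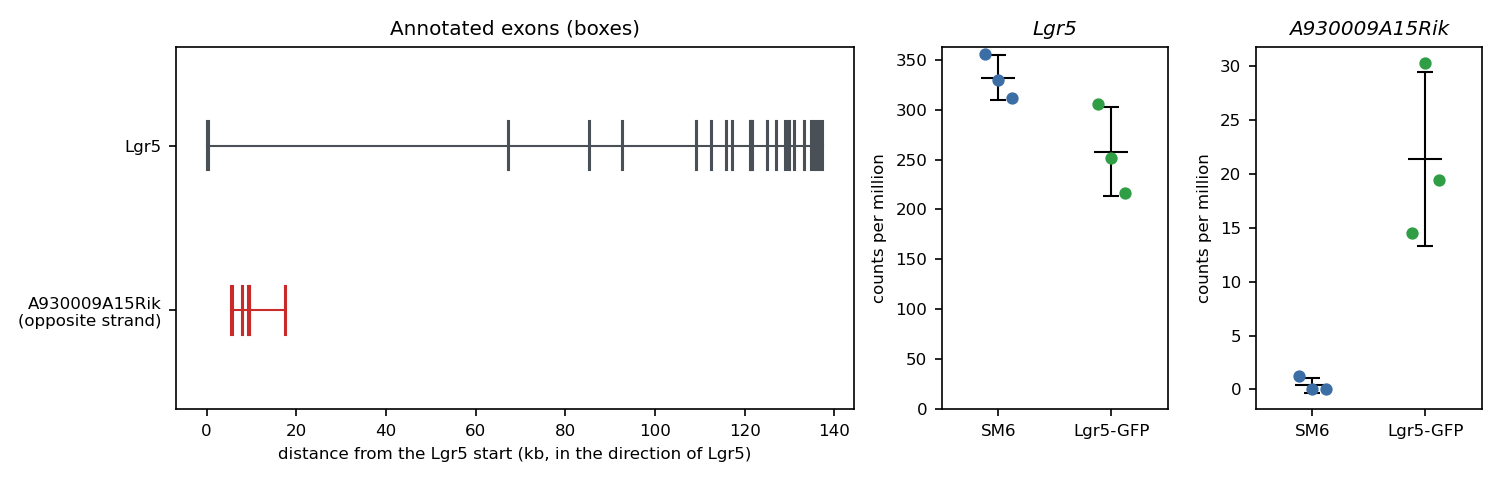
Left, annotated exons of Lgr5 and A930009A15Rik by distance from the Lgr5 start in kb. Middle and right, CPM of both genes in the 2-month libraries, with bars for mean and SD of 3 libraries. A930009A15Rik sits between exons 1 and 2 of Lgr5, and its counts were almost wholly in the Lgr5-GFP libraries, whereas Lgr5 was at 217 to 305 CPM there and at 312 to 356 CPM in SM6.

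The enteroendocrine genes Gip and Chga were lower in the Lgr5-GFP libraries. Gip encodes the incretin hormone of duodenal and jejunal K cells. Its level was 263, 671 and 903 CPM in SM6 and 39.7, 6.62 and 3.73 CPM in Lgr5-GFP, so even the lowest SM6 library was several times above the highest Lgr5-GFP library. The log2 fold change was -5.02 ± 0.59, the most negative among the calls (adjusted p = 0.000134). Chga, which encodes chromogranin A of hormone granules, was at 73.4, 71 and 106 CPM in SM6 and at 21.1, 16.1 and 13.7 CPM in Lgr5-GFP (log2 fold change -2.27 ± 0.32, adjusted p = 0.00121). In bulk libraries, fewer cells of a type and less RNA per cell cannot be told apart.

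Some other hormone and granule genes had values in the same direction without passing the test. Pyy, which encodes peptide YY, was at 8.49, 39.4 and 26.7 CPM in SM6 and at 7.88, 1.89 and 2.48 CPM in Lgr5-GFP, just outside the threshold (log2 fold change -2.39 ± 0.50, adjusted p = 0.0546). The secretin gene Sct was at 57.6 to 95.9 CPM in SM6 and at 21.5 to 49.1 CPM in Lgr5-GFP (log2 fold change -1.24 ± 0.30, adjusted p = 0.151), and chromogranin B, Chgb, was at 182 to 277 CPM against 66.2 to 116 CPM (log2 fold change -1.26 ± 0.38, adjusted p = 0.354). All 3 were called in the fit of the 2-month libraries that left out Lgr5-GFP replicate 1. The hormone genes Gcg, Ghrl and Sst did not lie lower throughout, and their libraries overlapped between groups. Gcg had 73, 69 and 20 counts in SM6 and 168, 15 and 50 counts in Lgr5-GFP. Ghrl had 16, 1 and 0 against 36, 0 and 6 counts, and Sst had 2, 0 and 7 against 18, 0 and 7 counts. Neurog3, the transcription factor of enteroendocrine progenitors, was not detected at this depth, with 0 counts in all 6 libraries. Of 22 enteroendocrine genes tested, 2 were called lower (0.0374% of all genes were) and 0 higher, and of the 17 that passed the filter in both groups 3 had positive fold changes, with a median log2 fold change of -1.24. The summed level of the list was 1081 to 1635 CPM in SM6 and 1472, 415 and 315 CPM in Lgr5-GFP. Of the sum in Lgr5-GFP replicate 1, 1125 CPM came from Reg4, a gene also used by other secretory cells and singled out here after its values were seen, which was at 137 to 283 CPM in the other 5 libraries. Without Lgr5-GFP replicate 1 the median was -1.75.

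**Figure D3:**
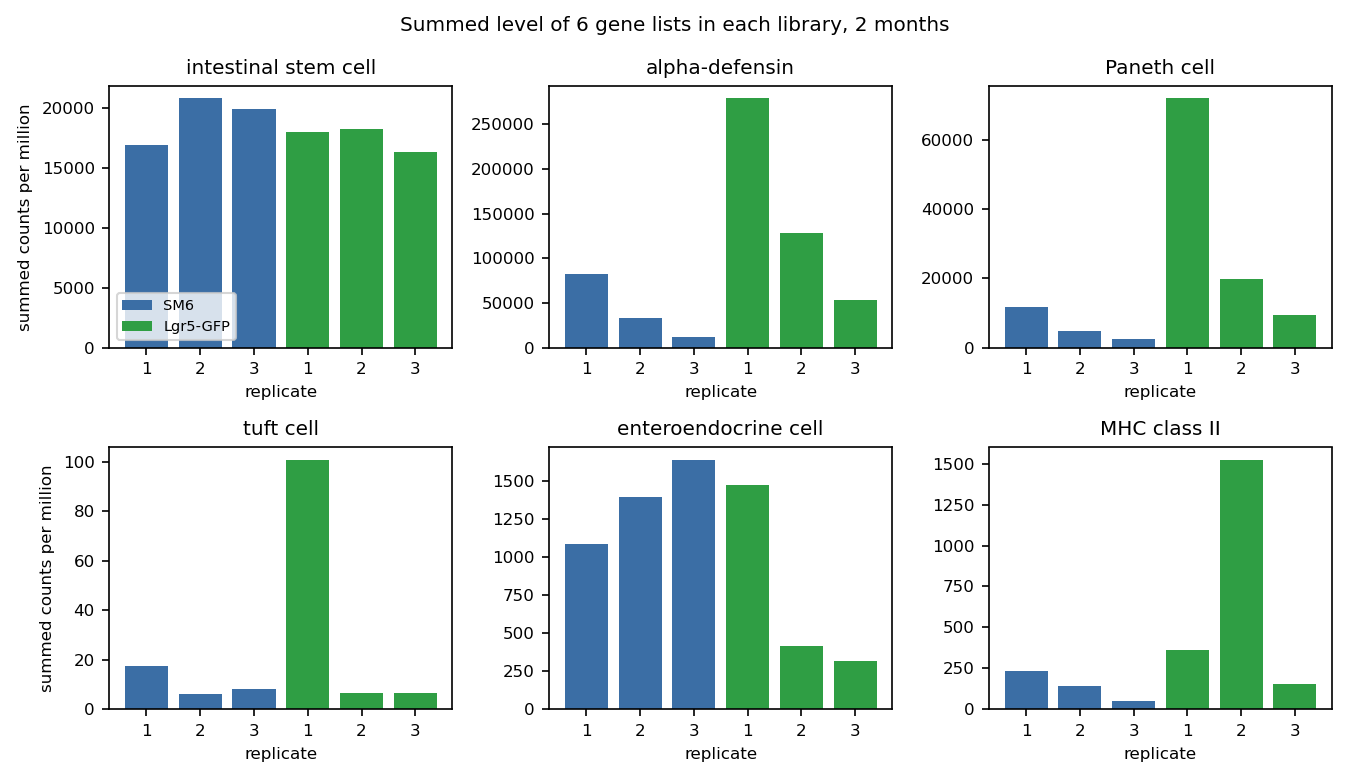
Summed CPM of 6 gene lists in each 2-month library, SM6 in blue and Lgr5-GFP in green, each panel with its own axis from 0. Stem cell genes summed to 16280 to 20770 CPM in every library, Paneth, alpha-defensin and tuft cell genes peaked in Lgr5-GFP replicate 1, and MHC class II genes peaked in Lgr5-GFP replicate 2 at 1524 CPM.

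Of the antimicrobial genes, Reg3g and Reg3b were higher in the Lgr5-GFP libraries, and lysozyme and the alpha-defensins that passed the filter in both groups had positive fold changes that did not pass the quasi-likelihood test. Without SM6 replicate 3 at 22 months, Lyz1, Mmp7, Mptx2, Pnliprp2, Defa3, Defa26, Defa29 and Defa35 were called too, and edgeR's likelihood ratio test called Mptx2, Defa29 and Defa35. Mptx2 was called under 7 of 26 alternatives in all, among them the fit of the 2-month libraries alone and limma voom, and with every gene of at least 1 count tested further alpha-defensins were called, such as Defa17 and Defa21. Reg3g and Reg3b encode secreted C-type lectins that bind bacterial surfaces. Reg3g was at 239, 116 and 141 CPM in SM6 and at 1407, 785 and 679 CPM in Lgr5-GFP (log2 fold change 2.53 ± 0.42, adjusted p = 0.0081). Reg3b was at 293, 94.8 and 132 CPM in SM6 and at 713, 799 and 943 CPM in Lgr5-GFP (log2 fold change 2.24 ± 0.44, adjusted p = 0.0393). The library with the most alpha-defensin counts, Lgr5-GFP replicate 1, had the highest Reg3g and the lowest Reg3b of its group. With the log2 alpha-defensin share as a covariate the log2 fold changes were 1.71 for Reg3g and 2.11 for Reg3b, and neither was called. The Reg3g call was lost under 4 of 26 alternatives and the Reg3b call under 8, among them leaving out SM6 replicate 2 or 3, and over all 26 the log2 fold changes stayed at or above 1.71 and 1.94. Reg3g and Reg3b are paralogs, and how the counting treated reads that match both is not given in the sources used here.

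Of the 16 Paneth cell genes tested, 14 had positive fold changes, 2 were called higher (Reg3g and Reg3b, against 0.0524% of all genes) and 0 lower, and the median log2 fold change was 2.26. Lyz1, the lysozyme gene that defines Paneth cells, was at 3252, 1466 and 708 CPM in SM6 and at 21780, 4571 and 2317 CPM in Lgr5-GFP. These groups overlapped, because SM6 replicate 1 lay above Lgr5-GFP replicate 3 (log2 fold change 2.4 ± 0.71, adjusted p = 0.341). Mmp7, the protease that activates alpha-defensins, was at 70.8 to 161 CPM in SM6 and at 834, 277 and 121 CPM in Lgr5-GFP (log2 fold change 1.91 ± 0.53, adjusted p = 0.308). Mptx2, a pentraxin gene of Paneth cells, was at 431, 154 and 73.7 CPM in SM6 and at 4639, 1501 and 500 CPM in Lgr5-GFP, which did not overlap (log2 fold change 3.33 ± 0.81, adjusted p = 0.168). Pnliprp2, a lipase gene, also did not overlap (log2 fold change 2.29 ± 0.61, adjusted p = 0.25). Of 39 alpha-defensin genes and pseudogenes, 22 were tested, with 0 calls by edgeR's quasi-likelihood test. At 2 months 5 of the 22 passed the filter only through Lgr5-GFP replicate 1, where they were high, and 1 passed in no 2-month library. The other 16 all had positive fold changes with an unadjusted p under 0.05, and their median was 2.36, or 1.13 without Lgr5-GFP replicate 1 and 0.031 with the alpha-defensin share as a covariate, which is built from the counts of these same genes and so takes their own difference out. Members of this family share near-identical sequence, so single values are uncertain. The smallest p among them belonged to Defa29 (log2 fold change 2.83 ± 0.75) and Defa35 (log2 fold change 2.79 ± 0.74), with adjusted p of 0.245 and 0.248. Without Lgr5-GFP replicate 1 the log2 fold change was 0.93 for Lyz1 and 0.833 for Mmp7, and the median of the Paneth list was 0.92, while with the alpha-defensin share as a covariate that median was 0.18. Alpha-defensins are Paneth cell transcripts too, so that covariate also takes out the difference that the Paneth list shares with them. All 16 Paneth list genes passed the filter in an SM6 library at 2 months.

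As shares of all counts, alpha-defensins took 4.32% ± 3.57 (SD, n = 3) in SM6 and 13.7% ± 8.89 (SD, n = 3) in Lgr5-GFP, and the Paneth list took 0.641% ± 0.466 and 2.96% ± 2.66. Without Lgr5-GFP replicate 1 the Lgr5-GFP means were 8.96% and 1.45%. Neither difference passed an exact two-sided permutation test (p = 0.2 for each, adjusted over 4 shares 0.267, where the smallest p that 3 against 3 allows is 0.1). Cytosolic ribosomal protein transcripts took 8.43% ± 0.508 in SM6 and 6.72% ± 1.40 in Lgr5-GFP without overlap (exact permutation p = 0.1, adjusted 0.267). As shares of the counts left after removing Paneth and alpha-defensin genes they took 8.66%, 8.99% and 8.94% in SM6 and 7.21%, 8.75% and 8.08% in Lgr5-GFP, which overlapped (exact permutation p = 0.2). Mitochondrially encoded protein transcripts took 2.45% ± 0.0868 and 2.50% ± 0.238 (exact permutation p = 0.8).

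Tuft cell transcripts were found mainly in 1 library. Of 14 tuft cell genes, 11 were tested and 0 were called by edgeR's quasi-likelihood test. At 2 months 9 of the 11 passed the filter only through Lgr5-GFP replicate 1, where they were high, and of the other 2 an unadjusted p under 0.05 was reached by 0, so no median is given. The summed level of the list was 101 CPM in Lgr5-GFP replicate 1, 6.62 CPM in both other Lgr5-GFP libraries and 6.10 to 17.6 CPM in SM6. Dclk1, a kinase gene that defines tuft cells, had 45 counts in Lgr5-GFP replicate 1 and at most 1 count in every other 2-month library. Rgs13, a regulator of G-protein signalling, was at 17.3 CPM there and at most 1.89 CPM in the others. The other defining markers, Trpm5 and Pou2f3, were highest in that library too but less confined to it. Trpm5 was at 6.68, 0 and 0.723 CPM in SM6 and at 12.6, 0.945 and 1.66 CPM in Lgr5-GFP. Pou2f3 was at 1.21, 2.22 and 0.723 CPM in SM6 and at 2.83, 0 and 1.24 CPM in Lgr5-GFP.

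Antigen presentation genes followed another library. MHC class II molecules display peptides to T cells and are expressed by some crypt cells as well as by immune cells. All 7 MHC class II genes had positive fold changes with an unadjusted p under 0.05, the median was 1.99, and 0 passed the adjusted threshold in edgeR's quasi-likelihood test. Cd74, the invariant chain, was at 71.6, 58.8 and 19.5 CPM in SM6 and at 167, 686 and 73.3 CPM in Lgr5-GFP, so that the groups just missed overlapping (log2 fold change 2.57 ± 0.53, adjusted p = 0.0546). Cd74 was called under 7 of 26 alternatives, among them leaving out Lgr5-GFP replicate 1 or replicate 3, and H2-Eb1 under 3. The chain genes H2-Aa, H2-Ab1 and H2-Eb1 reached 164, 377 and 151 CPM in Lgr5-GFP replicate 2, and at least 1 other Lgr5-GFP value of each lay within the SM6 range (adjusted p = 0.354, 0.38 and 0.176). Without Lgr5-GFP replicate 2 the list median was 0.91, and with the alpha-defensin share as a covariate it was 1.03. Markers of immune cells were scarce: 5 of 16 passed the filter, the summed level of the list was 12.7 to 27.7 CPM in SM6 and 39.7, 48.2 and 23.2 CPM in Lgr5-GFP, and Ptprc and Cd3e had at most 6 and 3 counts in any library and Cd79a had 0 throughout. Other markers of the list had more. Lyz2, the lysozyme gene of myeloid cells, was at 3.64, 0.554 and 1.45 CPM in SM6 and at 24.6, 5.67 and 4.14 CPM in Lgr5-GFP, without overlap (adjusted p = 0.38), and its reads can be split with its paralog Lyz1. Gzma, a granzyme gene, was at 0 to 16.6 CPM in SM6 and at 5.04, 29.3 and 10.4 CPM in Lgr5-GFP, highest in replicate 2 as the MHC class II genes were. The part of immune cells in the MHC class II values was not tested.

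The cytosolic chaperone genes Hsph1 and Dnaja1 were higher in the Lgr5-GFP libraries. The heat shock response raises chaperones when proteins misfold, through heat shock factor 1, which binds repeats of the letters GAA and their complement. Hsph1, which encodes a large HSP110 that recharges HSP70, was at 123, 131 and 98.3 CPM in SM6 and at 255, 266 and 295 CPM in Lgr5-GFP (log2 fold change 1.21 ± 0.18, adjusted p = 0.00205). Dnaja1, an HSP40 co-chaperone, was at 245, 303 and 324 CPM in SM6 and at 507, 642 and 509 CPM in Lgr5-GFP (log2 fold change 0.93 ± 0.16, adjusted p = 0.0127). Neither gene peaked in Lgr5-GFP replicate 1. The Hsph1 call held under all 26 alternatives, whereas the Dnaja1 call was lost under 4 (on totals without TMM, and without SM6 replicate 1, SM6 replicate 2 or Lgr5-GFP replicate 2, with adjusted p up to 0.151). Chordc1, an HSP90 co-chaperone, was at 46.7 to 66.5 CPM in SM6 and at 95.2 to 127 CPM in Lgr5-GFP, just outside the threshold (log2 fold change 0.93 ± 0.19, adjusted p = 0.0546). Hspa8, the constitutive HSP70, was at 915 to 1073 CPM in SM6 and at 1281 to 1564 CPM in Lgr5-GFP (log2 fold change 0.51 ± 0.16, adjusted p = 0.354). Of 14 heat shock genes tested, 2 were called higher (0.0524% of all genes were), and 0 lower. At 2 months 2 of the 14 passed the filter only through Lgr5-GFP libraries, and of the other 12, 9 had positive fold changes with a median of 0.39.

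The promoters of 11 of these 14 genes were at hand from RefSeq (GRCm38.p6). In the 250 bases before the start, 6 of the 11 held GAANNTTC or TTCNNGAA, a pair of heat shock factor units on either strand, as did 12.8% of the 32851 promoter windows in the table. Those 6 were Dnaja1, Hspa1a, Hspa1b, Hspd1, Hspe1 and Hsph1. They are counted by gene, where any annotated start could match, whereas the 12.8% is counted by window. Nor are they 6 separate sequences, since Hspa1a and Hspa1b held the same letters and Hspd1 and Hspe1 share theirs. The windows of both called genes, of the inducible HSP70 gene Hspa1a and of Hspe1, a mitochondrial chaperonin gene that was not called, are shown to compare the letters, 30 bases each, 5′ to 3′ on the strand of the gene, with the matched pair in capitals.
Hsph1 (chr5:149636351-149636380, minus strand): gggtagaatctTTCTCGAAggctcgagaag
Dnaja1 (chr4:40722333-40722362, plus strand): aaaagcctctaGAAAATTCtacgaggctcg
Hspa1a (chr17:34972242-34972271, minus strand): cgaaactgctgGAAGATTCctggccccaag
Hspe1 (chr1:55088048-55088077, plus strand): gccacggtccgTTCTAGAAccttccggaag
The Hsph1 pair began 33 or 54 bases before the start, by which of 2 annotated starts is used, the Dnaja1 pair 124 bases, the Hspa1a pair 104 bases and the Hspe1 pair 89 bases. These are RefSeq starts, and the GENCODE models used for counted genes begin further upstream for Hsph1 and Dnaja1, so that both pairs lie inside those models. Hspe1 shares this region with Hspd1 on the other strand and holds further pairs close by, of which 1 overlaps the one shown. Hspa1a had 0, 1 and 0 counts in SM6 and 17, 6 and 5 counts in Lgr5-GFP (adjusted p = 0.38), and its near-identical neighbour Hspa1b had 0, 0 and 2 against 15, 3 and 1 counts. Hspe1 was at 546 to 667 CPM in SM6 and at 559 to 710 CPM in Lgr5-GFP (log2 fold change 0.087 ± 0.17, adjusted p = 0.946).

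Genes of the unfolded protein response, the counterpart of the heat shock response in the endoplasmic reticulum, had mostly positive fold changes, and none passed the quasi-likelihood test. Of 18 tested, 13 had positive fold changes, 0 were called by edgeR's quasi-likelihood test, 5 had an unadjusted p under 0.05, and the median was 0.24, or 0.15 with the alpha-defensin share as a covariate. The smallest p of the list belonged to Hspa5, described with the gate genes above, which DESeq2, limma voom and edgeR's robust and likelihood ratio tests called. Manf, a secreted factor of this response, was at 138 to 149 CPM in SM6 and at 200 to 219 CPM in Lgr5-GFP (log2 fold change 0.52 ± 0.16, adjusted p = 0.354). Creld2, a resident of the endoplasmic reticulum, and Xbp1, a transcription factor of the response, also had no overlap between groups, with log2 fold changes of 0.72 ± 0.21 and 0.55 ± 0.17 (adjusted p = 0.338 and 0.354).

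Immediate early genes, which cells switch on within minutes of a stimulus, gave 1 call. Fos, a subunit of the AP-1 transcription factor, was at 15.2, 8.87 and 21.7 CPM in SM6 and at 33.4, 95.5 and 86.1 CPM in Lgr5-GFP (log2 fold change 2.22 ± 0.39, adjusted p = 0.0127). Its paralog Fosb had 0 counts in the 3 SM6 libraries and 44 counts over the 3 Lgr5-GFP libraries, where it was at 6.62, 7.56 and 6.21 CPM. Against a floor of 3 counts over the SM6 group this was at least 10.7-fold higher. Fosb passed the filter at 2 months only through the Lgr5-GFP libraries, and its adjusted p of 0.0546, with calls under 9 of 25 alternatives, is read with that limit. Junb was at 33.4 to 44.8 CPM in SM6 and at 64.6 to 118 CPM in Lgr5-GFP (log2 fold change 1.13 ± 0.27, adjusted p = 0.15), and was called under 3 of 26 alternatives. Jund lay the other way, at 66.7 to 78.7 CPM in SM6 and at 33.1 to 52.2 CPM in Lgr5-GFP (log2 fold change -0.73 ± 0.21, adjusted p = 0.323). Of 20 tested members of 25, 1 was called higher (0.0524% of all genes were) and 0 lower. At 2 months 4 of the 20, Fosb among them, passed the filter only through Lgr5-GFP libraries, and of the other 16, 12 had positive fold changes with a median of 0.17. The Fos call was lost under 5 of 26 alternatives (edgeR's robust fit, and without SM6 replicate 1, SM6 replicate 2, Lgr5-GFP replicate 2 or Lgr5-GFP replicate 3, with adjusted p up to 0.148). Lgr5-GFP replicate 1, which stood apart for Paneth and tuft cell genes, had the lowest Fos of its group.

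The letters TGACG, the core of the cyclic AMP response element, were searched on both strands in the same promoter windows because Fos carries known elements of this kind. They were found in 9 of 17 tested immediate early genes with a promoter at hand and in 17.8% of all promoter windows. The first count is by gene, where any annotated start could match, and the second by window. The windows of Fos and Fosb are shown for the match nearest the start, with the matched letters in capitals.
Fos (chr12:85473812-85473841, plus strand): agttccgcccagTGACGtaggaagtccatc
Fosb (chr7:19310088-19310117, minus strand): tggagttgcgggTGACGcaagcgcgggggc
The matches began 66 and 60 bases before the start. Among the 9 were also Atf3, Btg2, Dusp1, Junb, Klf4, Maff and Ppp1r15a, of which 0 were called.

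The remaining calls belonged to none of the lists. Baiap2l1, which encodes an adaptor that bends membranes and bundles actin, was at 21.8, 28.8 and 29.6 CPM in SM6 and at 48.2, 58.6 and 66.2 CPM in Lgr5-GFP (log2 fold change 1.10 ± 0.22, adjusted p = 0.0393). Gm47283 was at 117, 66.5 and 40.5 CPM in SM6 and at 14.2, 9.45 and 0.414 CPM in Lgr5-GFP (log2 fold change -3.19 ± 0.49, adjusted p = 0.0034). It is annotated on chromosome Y from 90784738 to 90816464, in the part that pairs with chromosome X, and the mice were female. CT010467.1, annotated as a ribosomal RNA on chromosome 17, was at 3399, 2153 and 2455 CPM in SM6 and at 1022, 1207 and 1419 CPM in Lgr5-GFP (log2 fold change -1.13 ± 0.20, adjusted p = 0.0162). Hist1h4d, a histone H4 gene with many near-identical copies, was at 83.1, 92.6 and 78 CPM in SM6 and at 23.9, 42.5 and 47.2 CPM in Lgr5-GFP (log2 fold change -1.19 ± 0.23, adjusted p = 0.0393). The calls on Baiap2l1 and Hist1h4d were lost under 13 and 12 of 26 alternatives, the most of the 12.

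The other lists gave 0 calls by edgeR's quasi-likelihood test. Among members that passed the filter in both groups at 2 months, an unadjusted p under 0.05 was reached by 1 ribosomal protein gene with a positive and 16 with a negative fold change, by 4 enterocyte genes with positive ones, and by at most 1 gene in each direction in every other list of this paragraph. Of 81 such cytosolic ribosomal protein genes, 12 had positive fold changes and the median was -0.23, or -0.14 without Lgr5-GFP replicate 1 and -0.033 with the alpha-defensin share as a covariate. Rps16 was at 288 to 504 CPM in SM6 and at 221 to 260 CPM in Lgr5-GFP (log2 fold change -0.73 ± 0.20, adjusted p = 0.308), whereas Rpl7 lay the other way at 0.94 ± 0.28 (adjusted p = 0.347), and reads of both can be split with pseudogenes. Rpl7 was called under 4 of 26 alternatives, among them that covariate and leaving out Lgr5-GFP replicate 1, and Rps16 under 1. Among goblet cell genes the median was -0.12 over 14, or -0.44 without Lgr5-GFP replicate 1, and Tff3, a trefoil factor, was at 1493 to 2201 CPM in SM6 and at 1143 to 1402 CPM in Lgr5-GFP (adjusted p = 0.596). The mucin gene Muc2 was at 237 to 379 CPM in SM6 and at 186 to 473 CPM in Lgr5-GFP. Among enterocyte genes 17 of 20 had positive fold changes with a median of 0.33, which ran from 0.13 without Lgr5-GFP replicate 3 to 0.52 without SM6 replicate 3 and was 0.97 with the alpha-defensin share as a covariate. The brush-border enzymes Alpi and Sis had log2 fold changes of 1.21 ± 0.42 and 0.80 ± 0.33 (adjusted p = 0.464 and 0.6), and Alpi was called with that covariate. The medians were 0.11 for 21 S phase genes, -0.063 for 24 genes of G2 and mitosis, -0.052 for 22 cholesterol synthesis genes, -0.24 for 9 Notch pathway genes, 0.034 for 11 BMP pathway genes, 0.43 for 10 interferon response genes, -0.0026 for 6 regenerative genes and 0.025 for 8 mitochondrially encoded genes. Without Lgr5-GFP replicate 1 they were 0.18, 0.043, 0.019, -0.40, 0.011, 0.29, -0.15 and 0.071 in that order, and with the covariate the interferon median was 0.16. Among the members with the smallest p in these lists were Mcm4, Nusap1, Dll1, Bambi, Oasl2, Ccn1 and mt-Nd3, whose adjusted p lay between 0.12 for Ccn1, which encodes a matricellular protein, and 0.715 for mt-Nd3. Of 12 stromal and endothelial genes, 1 passed the filter (Pecam1, log2 fold change -0.45 ± 0.98), and Col1a1 and Cdh5 had at most 1 count in any library.

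**Figure D4:**
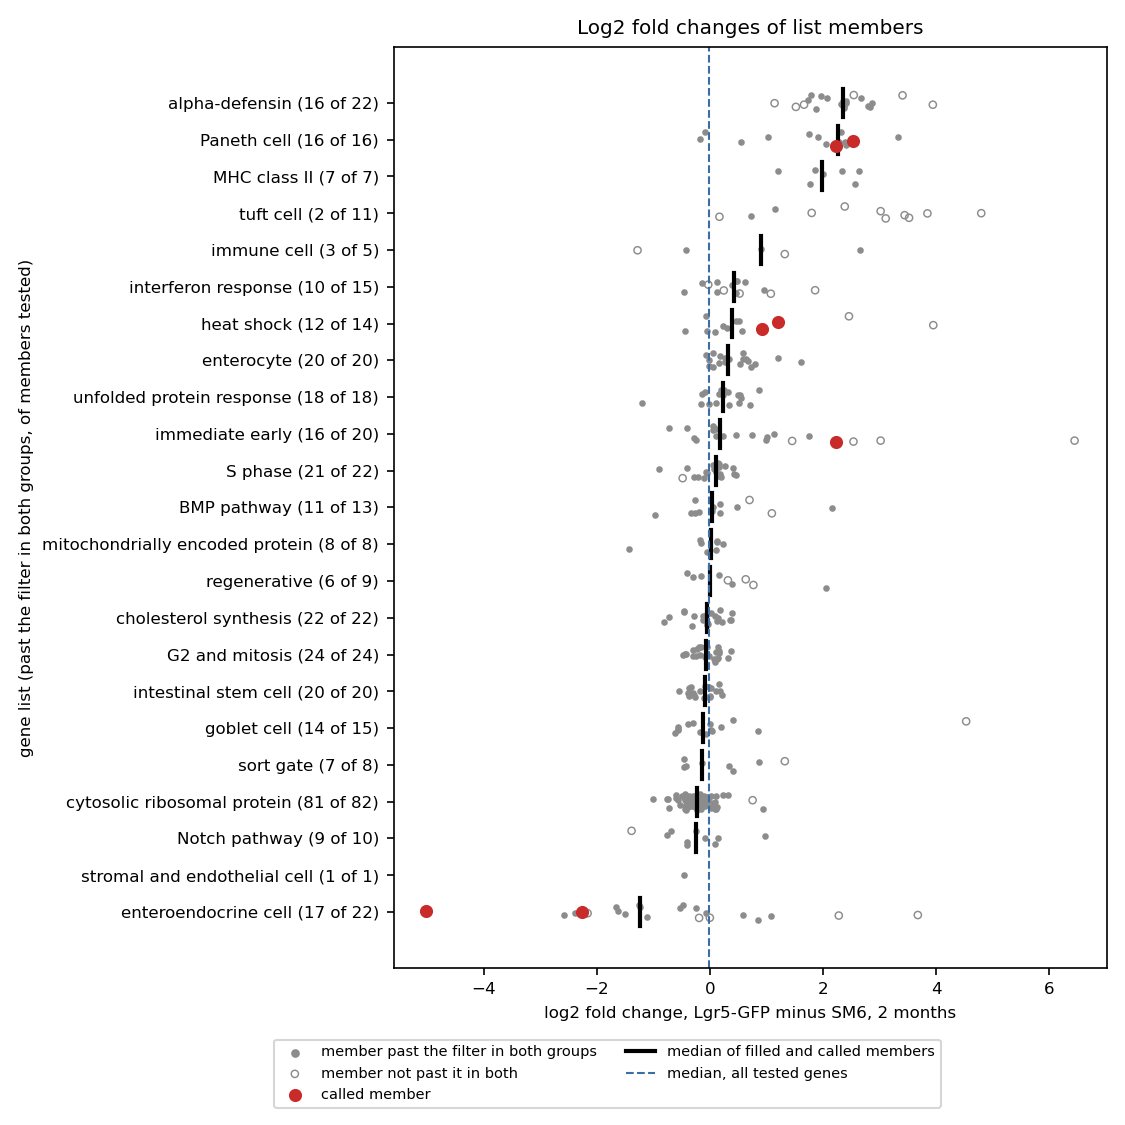
Log2 fold change (Lgr5-GFP minus SM6, 2 months) of every tested member of each gene list, with called genes in red and the median of all tested genes (-0.0081) as a dashed line. Filled points and, in lists with over 2 of them, black median bars are members that passed the filter in both groups at 2 months, and hollow points, which include 9 of the 11 tuft and 6 of the 22 alpha-defensin genes, did not and enter no median. The 5 red points apart from the enteroendocrine pair belong to the Paneth, heat shock and immediate early lists.

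The same comparison at 22 months, in other mice, was used to ask which differences were called at both ages. At 22 months 96 genes were called (0.718% of those tested), 6 higher (0.0449%) and 90 lower (0.673%) in Lgr5-GFP, and 1256 had an unadjusted p under 0.05 (9.4%). On library totals without TMM the split was 26 higher and 81 lower, and without Lgr5-GFP replicate 3 at 22 months 40 genes were called. Of the 12 genes called at 2 months, 3 were called at 22 months as well, all in the same direction: A930009A15Rik, Gip and Chga. These are 25% of the 2-month calls and 3.12% of the 22-month calls. Gip was at 651, 698 and 2258 CPM in SM6 and at 10.7, 10.6 and 7.71 CPM in Lgr5-GFP at 22 months. The Gip effect, Lgr5-GFP minus SM6, did not pass the test of a difference between ages (adjusted p = 0.492). For Chga and A930009A15Rik the adjusted p of that difference was 0.87 and 0.913.

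For other genes the effect, Lgr5-GFP minus SM6, differed between ages. The difference of the effects, tested as an interaction, was called for 88 genes (0.658%), 81 with the effect more positive at 2 months (0.606%) and 7 with it more negative (0.0524%), and 1260 had an unadjusted p under 0.05 (9.43%). On library totals without TMM the split was 61 and 52. Reg3g had a log2 fold change of 2.53 at 2 months and -1.60 at 22 months (adjusted p of the difference 0.00124), and Reg3b had 2.24 and -1.34 (0.00554). Hsph1 had 1.21 and -0.28 (0.00554) and Dnaja1 0.93 and -0.52 (0.00344). In Dnaja1 the SM6 libraries at 22 months were at 407 to 437 CPM and the Lgr5-GFP libraries at 276 to 304 CPM, the reverse of the order at 2 months. Gm47283 had -3.19 at 2 months and -0.15 at 22 months (0.0299), where both groups lay between 23.1 and 55.9 CPM. For Fos, with 2.22 and 1.81, the difference did not pass (adjusted p = 0.901).

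The smallest p among the differences belonged to Guca2b, which encodes the gut hormone uroguanylin, with log2 fold changes of 1.04 at 2 months and -2.19 at 22 months (adjusted p = 0.000388). Ccl6, a chemokine gene, had 1.29 and -2.66, and Dynll1, a dynein light chain gene, 0.63 and -1.24 (adjusted p = 0.00124 for both). In the other direction were Trim16 with -0.84 and 0.83, Pdcd4, an inhibitor of translation, with -0.76 and 0.57, and Zbtb44 with -0.75 and 0.76 (adjusted p = 0.0128, 0.0226 and 0.0298). Of the 81, 10 were among the 16 Paneth genes tested, 12 among the 22 alpha-defensins, 7 among the 20 enterocyte genes, 4 among the 18 unfolded protein response genes, 3 among the 15 goblet cell genes, 2 among the 22 enteroendocrine genes and 2 among the 14 heat shock genes, and the MHC class II, BMP and regenerative lists held 1 each, against 0.606% of all genes. These counts run over all members tested, also those that passed the filter at 2 months only through 1 group. Of the 22 alpha-defensins, 5 passed it at 2 months only through Lgr5-GFP replicate 1, where they were high. Another 1 passed only in 22-month libraries, and the 12 is read with that limit. Alpha-defensin counts moved with these groups: they peaked in Lgr5-GFP replicate 1 at 2 months (23.2%) and in SM6 replicate 3 at 22 months (23.1%), which are on opposite sides of the comparison, and their part in the difference was not tested beyond the values that follow. With the alpha-defensin share as a covariate 34 genes were called for the difference, and the count was 41 without Lgr5-GFP replicate 1 at 2 months, 45 without SM6 replicate 2 at 2 months and 56 without Lgr5-GFP replicate 2 at 22 months. Across all 13368 genes the effects at the 2 ages had the same sign in 48.8%, with Pearson's r = -0.0503 and Spearman's rho = -0.0364. These are given as a description across genes, which are not independent replicates.

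**Figure D5:**
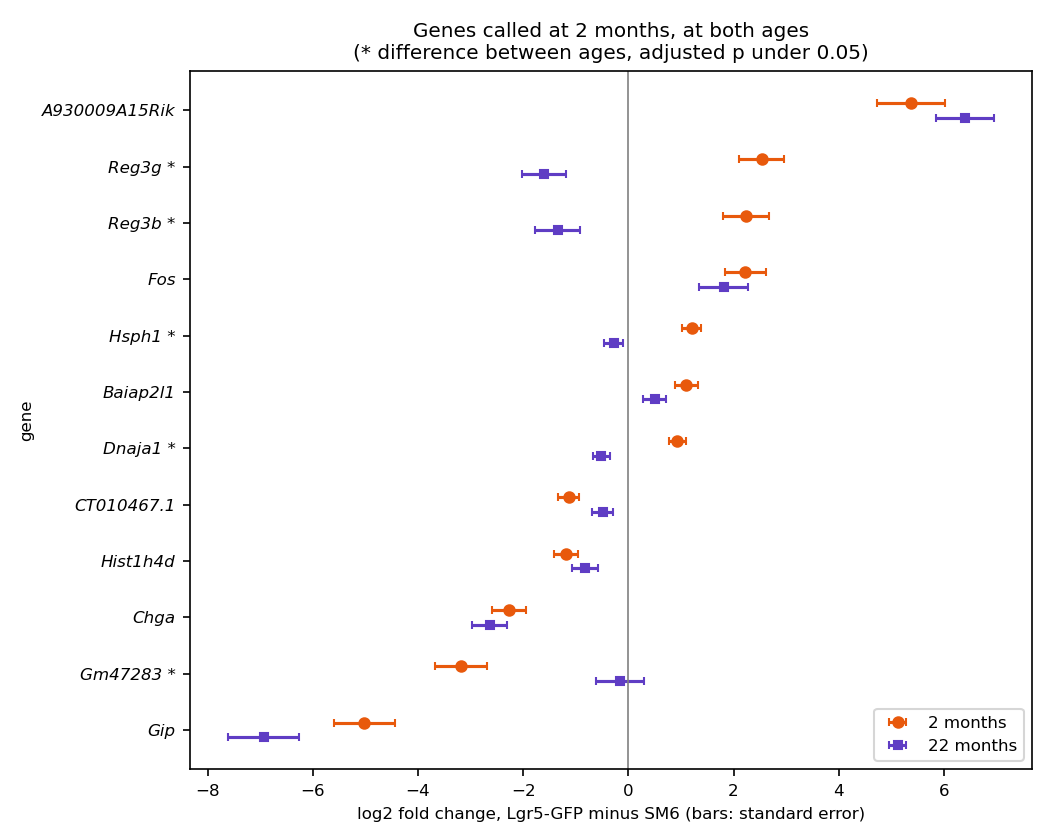
Log2 fold change (Lgr5-GFP minus SM6) of the 12 genes called at 2 months, at 2 months (orange circles) and 22 months (purple squares), with bars for the standard error and an asterisk where the difference between ages passed an adjusted p of 0.05. A930009A15Rik, Gip and Chga keep their side at both ages, and Reg3g, Reg3b, Hsph1 and Dnaja1 lie on opposite sides of 0.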

How the data were processed

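Per the labels and the study's methods, the authors sorted ISCs, made 3′ libraries with unique molecular identifiers (whether these were collapsed is not given in the sources used here), aligned reads with STAR 2.4.2a to GRCm38, counted them over GENCODE exons with featureCounts and deposited whole-number counts per gene. Here each library was 1 sample from 1 mouse, grouped by the labels. The deposited counts were tested with edgeR 4.0.16 (quasi-likelihood F test, TMM scaling, 1 mean per group over all 12 libraries, Benjamini-Hochberg adjustment over 13368 genes, called under an adjusted p of 0.05). Library totals ran from 970472 to 3815425 counts. The standard error (SE) of a log2 fold change was derived as its absolute value over the square root of the F statistic. Its spread therefore rests on all 12 libraries, not on the 3 per group alone, and its median was 0.334. Intervals and floors (3 counts) cover counting error only. Genes were matched to GENCODE vM21 for 54165 of 54232 identifiers. Shares of counts were compared by exact permutation (scipy 1.17.1). The fit was tested on simulated data. DESeq2 1.42.0, limma 3.58.1 and other settings served as alternatives.

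The comparison, its gene lists and its tests were chosen with earlier results of these data known. Genes were named by rule: Lgr5 and the gate genes, up to 10 called genes in each direction whose libraries do not overlap, up to 4 members of each of 23 lists by smallest p, up to 4 called genes nearest Lgr5, and up to 4 per direction for the difference between ages. Defining markers (Lyz1, Mmp7, Chgb, Muc2, Ascl2, Olfm4, Smoc2 and others) are named as such, and Reg4, Hspa1a, Hspa1b and Hspe1 were named after their values were seen.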

Additional observations from a re-analysis of the deposited data

Results flagged for a closer look

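The effect, Lgr5-GFP minus SM6, differed between mice aged 2 and 22 months by an interaction term in the edgeR fit for 88 genes. Strain, reporter allele and sorting method change together in it. Values below are log2 differences of the effect, 2 minus 22 months, each with an adjusted p under 0.05. Alpha-defensin counts were highest in Lgr5-GFP replicate 1 at 2 months (23.2%) and in SM6 replicate 3 at 22 months (23.1%), and without the former 41 genes were called.

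Among Paneth cell genes the difference was 6.95 for Mptx2, 6.23 for Defa29, 5.73 for Defa35, 5.13 for Lyz1, 4.20 for Mmp7, 4.13 for Reg3g, 3.89 for Pnliprp2 and 3.58 for Reg3b. Among other secretory cell genes it was 3.56 for Reg4, 2.91 for the goblet cell gene Spink4 and 2.00 for Sct. Among enterocyte genes it was 3.26 for Alpi and 2.51 for Sis, and Guca2b stood at 3.23. Among stress response genes it was 1.55 for Creld2, 1.49 for Hsph1, 1.44 for Dnaja1, 1.27 for Manf and 1.20 for Xbp1. It was 4.19 for Bambi, a decoy receptor of the BMP pathway, 3.95 for Ccl6, 3.70 for Cd74 and 1.87 for Dynll1. The effect was more negative at 2 months for Gm47283 (-3.03), Trim16 (-1.67), Zbtb44 (-1.51) and Pdcd4 (-1.32).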

How the results depend on the processing

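The 12 genes called at 2 months kept their direction under all 26 alternatives. The count of 2-month calls was 125 with every gene of at least 1 count tested, 41 with edgeR's likelihood ratio test, 25 on library totals without TMM, 22 with DESeq2, 22 with limma voom, 6 at an adjusted p under 0.01 and 25 at one under 0.1, and 6 to 39 when 1 library was left out. A fit of the 2-month libraries without Lgr5-GFP replicate 1, added after the data were seen, gave 31. At 22 months the count was 228 with every gene of at least 1 count, 203 with the likelihood ratio test and 40 to 120 when 1 library was left out. For the difference between ages it was 224, 158, 50 with edgeR's robust fit, 34 with the alpha-defensin share as a covariate, and 41 to 98 when 1 library was left out. The causes were not tested.

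Gip and Gm47283 were not called under edgeR's robust fit (adjusted p = 0.212 and 0.368). With the alpha-defensin share as a covariate the fold change turned to -0.145 for Lyz1, -0.0191 for Mmp7, -0.37 for Dclk1, -0.475 for Reg4, -0.129 for Spink4 and -0.0459 for Ephb2. That share is made of Paneth cell transcripts, so the fit takes out the difference that Lyz1 and Mmp7 share with them. With 1 library left out Lyz1 stayed between 0.93 and 3.13 and Mmp7 between 0.833 and 2.35. Ascl2 was at -0.0446 without TMM and between -0.00776 and 0.262 with 1 library left out, where Reg4 ran from -0.309 to 1.53 and Dclk1 from -0.45 to 4.05. In the added fit Reg4 was at -0.293. The difference in the mitochondrial share ran from -0.0562 to 0.179 percentage points. Cause was not tested for these either.

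Same-numbered 2-month libraries deviated together only weakly (Pearson's r = 0.0455, 0.0225 and 0.0399, under 0.1), although each correlated best with its own number. All pairs of unlike number had negative values (-0.0321 to -0.00957). The alpha-defensin share fell with the replicate number in SM6 (8.24%, 3.46% and 1.26%) and in Lgr5-GFP (23.2%, 12.3% and 5.57%). Whether the number marks shared handling is not given in the sources used here. A small r over all genes cannot decide it, and the share tests above were unpaired. With the replicate block 11 genes were called at 2 months, all 11 among the 12, 97 at 22 months and 104 for the difference.

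With 3 mice per group, no gene with a fold change under 0.925 on the log2 scale was called at 2 months. Strain, reporter and sorting cannot be told apart.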
